A study of Homo sapiens with 6 samples.

Results

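The 33 genes described here encode enzymes that make the building blocks of RNA and DNA: the purine and pyrimidine nucleotides and the deoxynucleotides (dNTPs). They were chosen by symbol from a list of synthesis and salvage enzymes, and 33 of 33 were found among the 60664 genes counted. Polyadenylated RNA had been sequenced from D283 Med cells, a human Group 3 medulloblastoma line with an amplified MYC gene. Cells of 3 libraries (KD) had been transfected with an LNA GapmeR, an antisense oligonucleotide that directs RNase H to its target, against the long non-coding RNA lncMB3. Cells of the 3 control libraries (SCR) had received a GapmeR labelled as scrambled. All 6 libraries come from this 1 cell line, and all cells went through GapmeR transfection. GapmeR sequences and the time after transfection were not found in the labels, so loss of lncMB3 and other effects of that GapmeR cannot be told apart. The level of lncMB3 itself was not analysed here, and directions rest on the labels.

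Purine synthesis starts from phosphoribosyl pyrophosphate (PRPP), on which a chain of enzymes builds the base step by step up to IMP, the common precursor of AMP and GMP. Pyrimidine synthesis builds the ring before attaching the sugar phosphate, and leads through UMP to CTP. Ribonucleotide reductase turns ribonucleotides into deoxynucleotides, thymidylate synthase makes the T of DNA, and salvage enzymes recover free bases and nucleosides. Many of these genes are known MYC targets in other cells, and those for dNTPs are known to be transcribed most in S phase.

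Total counts ran from 7765826 in KD library 1 to 20035834 in SCR library 2, and the shallow KD library 1 gives the least precise values of weakly expressed genes. Whether the 3 libraries per group are separate cultures is not in the labels, so the p-values reflect library-to-library spread that could be purely technical. In bulk RNA, fewer cells with a transcript and less of it per cell cannot be told apart. Defining genes of this tumour type were present, with OTX2 at a mean of 729 CPM (counts per 1000000 on TMM-scaled library sizes) in KD and 885 CPM in SCR. Of 6 such genes tested 1 rose (GABRA5) and 5 fell (OTX2, CRX, NRL, NEUROD1 and IMPG2), with a median log2 change of -0.52 and a summed level of 1098 to 1113 CPM in KD and 1302 to 1424 CPM in SCR. Of 12 markers of immune, endothelial, mesenchymal, glial and epithelial cells, 4 passed the low-count filter and 2 of them, COL1A1 and DCN, fell. DCN reached the filter's floor of 0.546 CPM in 3 of 3 SCR libraries but in only 1 of 3 KD libraries, so its fall is uncertain. The summed level of the 12 markers was 16.8 to 19.4 CPM in KD and 22.1 to 24.8 CPM in SCR. Most of it was COL1A1, and MBP and MOG were at 0 in all 6 libraries. The part of these marker changes or of other cells in the results was not tested.

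A minority of the enzyme genes rose modestly in KD, led by UMPS of UMP formation, PPAT of IMP synthesis and the kinase gene NME1. The 7 dNTP enzymes gave no call, which in so short a list says little beside the shares over all genes. Of the 33 genes 33 passed the low-count filter, 8 were called higher and 1 lower by edgeR's quasi-likelihood test at an adjusted p under 0.05 over 14673 genes. Among all genes tested, 31.7% were called, 15.9% higher and 15.9% lower, so a call as such was no more frequent among these enzymes (27.3%). The direction was less even: 24.2% of the enzymes were called higher and 3.03% lower. The list was chosen with earlier results of these data known, so shares set beside those of all genes are descriptions only. Positive log2 changes were found in 27 of 33 genes, beside 50.1% of all genes tested, and the median log2 change (KD over SCR throughout) was 0.17, beside 0.00 over all genes. With upper-quartile scaling these medians were 0.11 and -0.06. In 17 genes every KD library lay above every SCR library and in 4 every KD library lay below, where the shares over all genes were 22.9% and 23.1% (46.0% in either direction). The rises were small, between 1.19-fold for PRPS1 and 1.52-fold for UMPS.

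**Figure D1:**
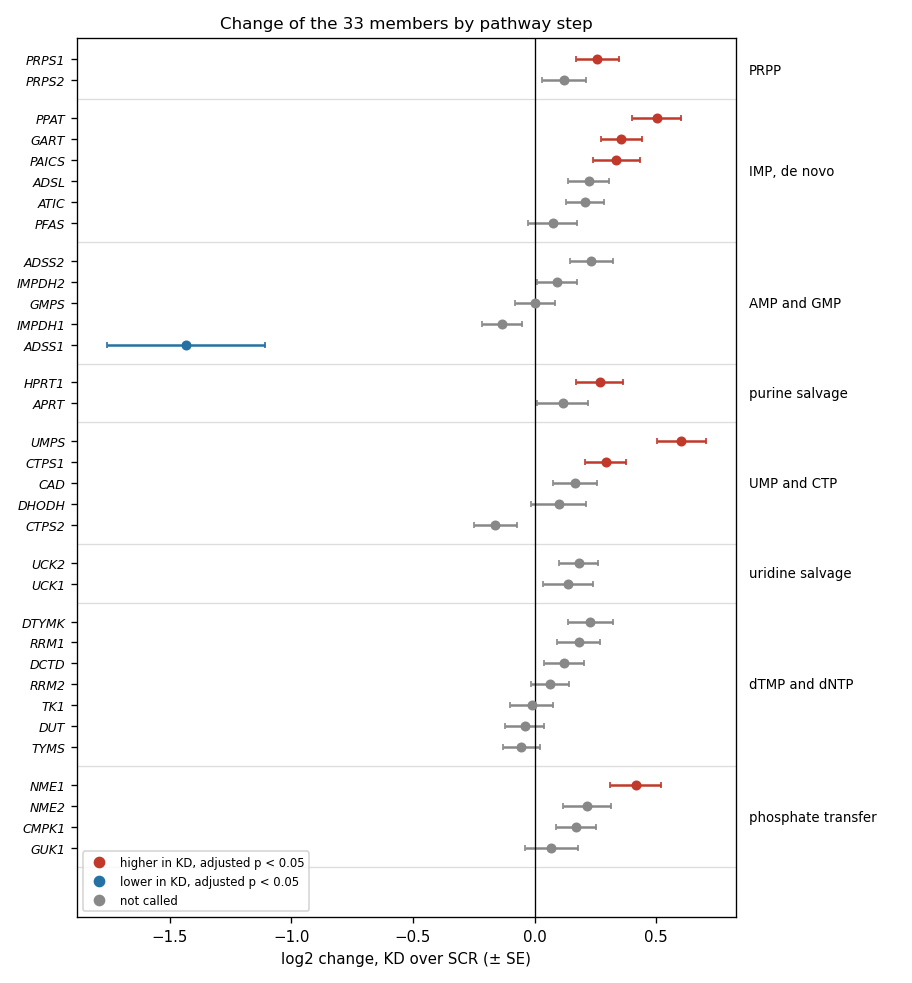
Log2 change of each of the 33 genes, KD over SCR, with bars of 1 SE, grouped by pathway step (n = 3 libraries each); red points were called higher, blue lower and grey not called. The 8 called rises lie between 0.26 and 0.60, and the 1 called fall is ADSS1 at -1.43.

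SCR library 1 lay nearest to the KD libraries. The mean log2 level of the 33 genes, relative to the mean of the 6 libraries, was 0.04, 0.11 and 0.04 in KD 1 to 3, against 0.01, -0.10 and -0.11 in SCR 1 to 3. The number of calls depended on which library was used. Without SCR library 2, without SCR library 3 or without KD library 3 only 4 of the 33 were called higher, and without SCR library 1 it was 12. UMPS, PPAT, GART, NME1 and ADSS1 were called under each of 13 alternative settings. With upper-quartile scaling 6 were called higher, and of all calls 38.7% were then higher, where TMM scaling gave 49.99%.

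**Figure D2:**
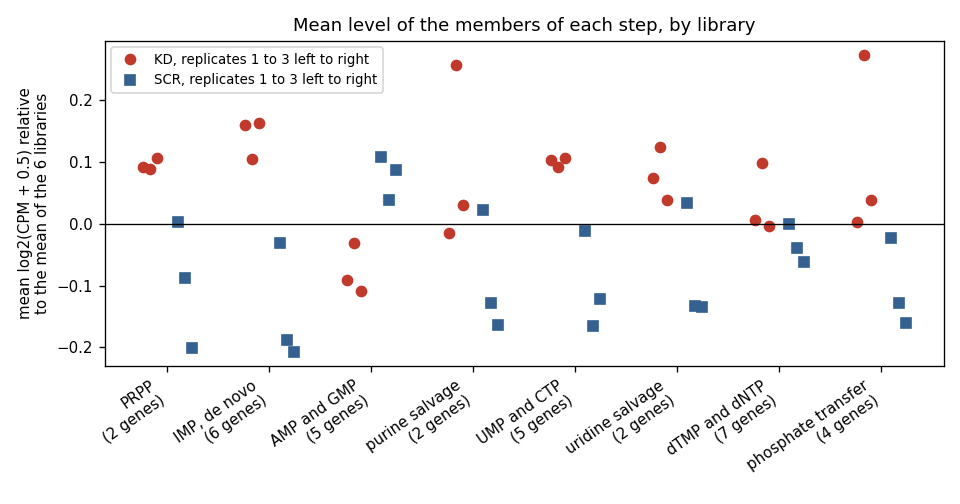
Mean log2(CPM + 0.5) of the genes of each pathway step, relative to the mean of the 6 libraries, in the 3 KD (circles) and 3 SCR (squares) libraries. For IMP synthesis KD libraries sit at 0.10 to 0.16 and SCR libraries at -0.21 to -0.03, while for dTMP and dNTP enzymes the KD libraries are at 0.01, 0.10 and 0.00 and the SCR libraries at 0.00, -0.04 and -0.06. For the AMP and GMP step KD libraries are at -0.11 to -0.03 and SCR libraries at 0.04 to 0.11. That mean gives ADSS1, a gene of few counts with a log2 change of -1.43, the same weight as the others. The median log2 change of the step's 5 genes was 0.00.

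The chain that makes IMP, with 6 of the genes, held 3 of the 8 rises, PPAT, GART and PAICS. Over all genes 15.9% were called higher, and 6 genes are few to set against that share. PPAT (ENSG00000128059, chromosome 4, 56393362 to 56435615, minus strand) encodes the amidotransferase that commits PRPP to purine synthesis. It had 144, 123 and 149 CPM in KD 1 to 3, against 111, 91.4 and 91.0 CPM in SCR 1 to 3. The groups did not overlap, and the mean was 139 ± 13.4 CPM in KD and 97.8 ± 11.5 CPM in SCR (SD, n = 3 each), a rise of 1.42-fold (log2 change 0.50 ± 0.10 SE, adjusted p = 0.00229). PAICS (ENSG00000128050, chromosome 4, 56435741 to 56464579, plus strand), a bifunctional carboxylase and synthetase of the middle of the chain, starts next to PPAT and is transcribed away from it. Its level was 821, 888 and 865 CPM in KD, against 758, 681 and 600.2 CPM in SCR, again without overlap. PAICS rose 1.26-fold (log2 change 0.34 ± 0.10 SE, adjusted p = 0.0155), and the call was lost without SCR library 2 (adjusted p = 0.0644), SCR library 3 (adjusted p = 0.085) or KD library 3 (adjusted p = 0.0584).

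PPAT and PAICS were both called higher and start side by side, and their promoter windows are shown for that reason, beside those of NME1 and UMPS, which are among the largest rises described below. Among the KD libraries their order differed, KD library 2 being the lowest for PPAT and the highest for PAICS, and whether they change together was not tested. Each window runs from 250 bases before to 50 bases after a RefSeq start site (GRCh38.p14) and is printed on the strand of the gene. For PAICS the start site nearest to that of PPAT was taken, so the distance between the 2 depends on that choice. For the other genes it was the site nearest to the gene's annotated 5' end. Capitals mark CACGTG, the E-box that MYC and MAX bind, and TGACGTCA, the cyclic AMP response element. The windows are chr4:56435566-56435865 (minus) for PPAT, chr4:56435502-56435801 (plus) for PAICS, chr17:51153309-51153608 (plus) for NME1 and chr3:124730202-124730501 (plus) for UMPS.
PPAT: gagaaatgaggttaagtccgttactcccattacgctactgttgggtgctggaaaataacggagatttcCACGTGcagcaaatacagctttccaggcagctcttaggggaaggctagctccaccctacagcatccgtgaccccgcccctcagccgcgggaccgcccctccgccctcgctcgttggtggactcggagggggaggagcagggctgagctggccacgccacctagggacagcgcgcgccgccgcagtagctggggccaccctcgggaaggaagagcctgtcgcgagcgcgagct
PAICS: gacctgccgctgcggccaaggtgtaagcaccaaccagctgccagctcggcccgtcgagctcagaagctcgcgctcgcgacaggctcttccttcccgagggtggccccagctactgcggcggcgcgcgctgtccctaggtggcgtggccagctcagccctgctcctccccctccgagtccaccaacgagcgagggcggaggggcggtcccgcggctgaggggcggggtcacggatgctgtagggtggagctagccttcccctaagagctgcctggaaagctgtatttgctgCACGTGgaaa
NME1: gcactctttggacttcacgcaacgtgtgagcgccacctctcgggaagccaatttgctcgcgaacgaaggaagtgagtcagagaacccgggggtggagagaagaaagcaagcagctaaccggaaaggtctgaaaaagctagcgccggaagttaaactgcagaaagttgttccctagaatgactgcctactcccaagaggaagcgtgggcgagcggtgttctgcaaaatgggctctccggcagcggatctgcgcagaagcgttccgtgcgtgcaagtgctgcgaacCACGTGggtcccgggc
UMPS: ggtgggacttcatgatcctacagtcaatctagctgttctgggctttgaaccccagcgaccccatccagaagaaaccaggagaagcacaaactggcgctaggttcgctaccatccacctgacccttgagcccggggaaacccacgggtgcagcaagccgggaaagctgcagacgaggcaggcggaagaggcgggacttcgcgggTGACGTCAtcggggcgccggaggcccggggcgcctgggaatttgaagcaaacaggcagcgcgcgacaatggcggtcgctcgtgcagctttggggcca
The start sites of PPAT and PAICS are 137 bases apart, their windows share 236 bases, and the same CACGTG at chr4:56435792-56435797 stands in both. It begins 182 bases before the start of PPAT and 40 bases after that of PAICS. In NME1 the E-box begins 34 bases after the start, and in UMPS the TGACGTCA begins 47 bases before it. Promoter windows were found for 31 of the 33 genes. CACGTG was in a window of 5 of them (PPAT, PAICS, ATIC, DHODH and NME1), or 16.1%, beside 8.77% of 27305 genes with windows and 7.26% of 35116 windows. The site shared by PPAT and PAICS is counted for both genes in that share, and ATIC and DHODH were not called. TGACGTCA was in 2 of the 31 (UMPS and GUK1), beside 2.25% of genes. These are 2 of 8 motifs searched on both strands, and only these 2 are set in capitals above. Neither was in the windows of GART, CTPS1, PRPS1 and HPRT1, the called rises whose windows are not printed. The rise of GART was slightly larger than that of PAICS. Of E2F-type motifs, TTTCCCGC was in 3 of the 31 (PRPS2, TYMS and DUT), beside 1.98% of genes, and a second form, TTTNGCGC, in 2 (GART and DUT), beside 2.17% of genes. The CCAAT box was in 10 of the 31, beside 39.7% of genes, and the ETS motif CCGGAAG in 7, beside 12.2% of genes. The YY1 motif AAGATGGCG was in 1, beside 2.14% of genes, and the palindromic NRF1 motif in 0, beside 1.52% of genes. A match describes letters only, and binding was not measured.

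GART (ENSG00000159131, chromosome 21, 33503931 to 33543491), a trifunctional enzyme of the early steps, had 289, 295 and 314 CPM in KD, against 252, 229 and 221 CPM in SCR. The groups were apart, with a rise of 1.28-fold (log2 change 0.36 ± 0.08 SE, adjusted p = 0.00574). GART shares 275 of its 7751 exon bases with SON on the other strand. SON rose as well (log2 change 0.44 ± 0.10 SE, adjusted p = 0.00502), and with the strand setting of the counting unknown, reads of the shared bases cannot be assigned. ATIC and ADSL, which act at the end of the chain, were above SCR in every KD library without passing the threshold. ATIC had 189, 185 and 179 CPM in KD, against 164, 156 and 158 CPM in SCR (log2 change 0.21 ± 0.08 SE, adjusted p = 0.0537). ADSL had 184, 197 and 176 CPM in KD, against 169, 161 and 148 CPM in SCR (log2 change 0.22 ± 0.08 SE, adjusted p = 0.0573). DESeq2 called both (adjusted p = 0.0334 for ATIC and 0.041 for ADSL), as did edgeR without SCR library 1, and limma-voom called ATIC (adjusted p = 0.0497). ADSL shares 1344 of 7111 exon bases with the gene ENSG00000284431 on the same strand. That gene held 586 counts over the 6 libraries, beside 17401 for ADSL. PFAS, the amidotransferase of the middle steps, overlapped between groups at 97.3, 77.7 and 91.8 CPM in KD and 88.6, 75.7 and 88.4 CPM in SCR (adjusted p = 0.603).

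**Figure D3:**
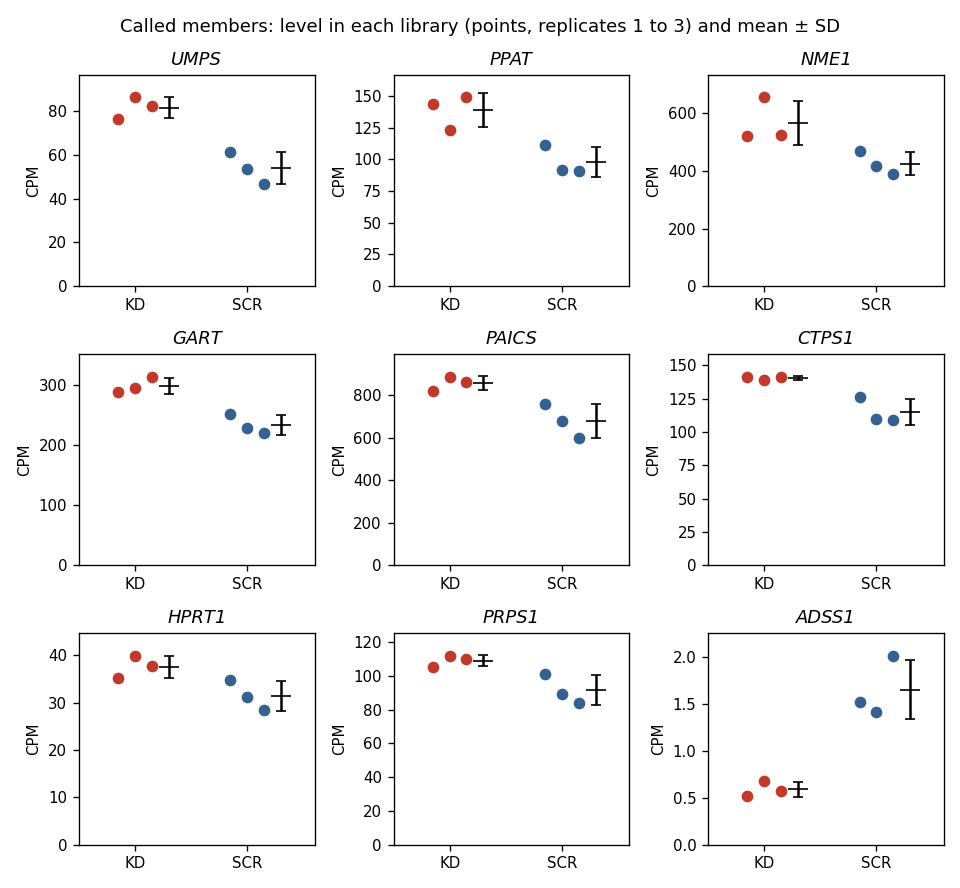
Level in CPM (linear axes from 0) of the 9 called genes in each KD (red) and SCR (blue) library, replicates 1 to 3 from left to right, with the mean and SD as black marks. In the 8 rises the lowest KD library lies above the highest SCR library, closely so for HPRT1 (35.3 against 34.7 CPM), and ADSS1 is under 1 CPM in the KD libraries.

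PRPS1 and PRPS2 make PRPP, the starting sugar phosphate. PRPS1 had 105, 112 and 110.0 CPM in KD, against 101, 89.1 and 83.9 CPM in SCR, so SCR library 1 came close to the KD libraries. It rose 1.19-fold (log2 change 0.26 ± 0.09 SE, adjusted p = 0.0384), but 7 of 13 alternatives lost the call, among them leaving out any library other than SCR library 1. PRPS2 averaged 28.4 ± 0.927 CPM in KD and 26.1 ± 1.44 CPM in SCR (SD, n = 3 each) and was not called (adjusted p = 0.335).

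Beyond IMP, 0 of the 5 genes of the branches to AMP and GMP were called higher and 1 was called lower. The share over all genes was 15.9% in each direction, and 5 genes are few to set against it. ADSS2 alone had an unadjusted p under 0.05 with a positive change, and DESeq2 and limma-voom also called 0 higher. IMPDH2, the main isoform of the enzyme that commits IMP to GMP, had 632, 667 and 606 CPM in KD, against 607, 586 and 593 CPM in SCR (adjusted p = 0.409). IMPDH1 had 67.4, 65.4 and 60.5 CPM in KD, each below the 70.0, 70.2 and 71.4 CPM of SCR, and was not called (log2 change -0.13 ± 0.08 SE, adjusted p = 0.23). GMPS, which completes GMP, averaged 242 CPM in both groups (log2 change 0.00 ± 0.08 SE, adjusted p = 0.996). ADSS2, the widespread adenylosuccinate synthetase on the way to AMP, had 83.0, 83.0 and 87.4 CPM in KD, above the 77.0, 74.7 and 64.0 CPM of SCR (log2 change 0.23 ± 0.09 SE, adjusted p = 0.0587), and was called without SCR library 1 (adjusted p = 0.0319). ADSS1, the isozyme known from muscle, had 0.520, 0.678 and 0.573 CPM in KD, against 1.52, 1.42 and 2.01 CPM in SCR. That is 4, 13 and 11 counts in KD and 26, 29 and 36 in SCR, without overlap (log2 change -1.43 ± 0.32 SE, adjusted p = 0.00451). ADSS1 was the lowest of the 33 genes, and 2 of 3 KD libraries and 3 of 3 SCR libraries reached the filter's floor of 0.546 CPM.

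Of the purine salvage enzymes, HPRT1, which recovers hypoxanthine and guanine, had 35.3, 39.9 and 37.7 CPM in KD, against 34.7, 31.2 and 28.4 CPM in SCR. Its adjusted p of 0.0497 was at the threshold (log2 change 0.27 ± 0.10 SE), and 10 of 13 alternatives did not call it, with adjusted p-values from 0.0179 to 0.201 over all 13. APRT, which recovers adenine, had 102, 132 and 102 CPM in KD, against 109, 98.6 and 103 CPM in SCR (adjusted p = 0.421), so KD library 2 alone stood above the others.

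In pyrimidine synthesis stood the largest rise of the 33 genes, that of UMPS (ENSG00000114491, chromosome 3, 124730366 to 124749273), the bifunctional enzyme that attaches the sugar phosphate to orotate and forms UMP. It had 76.6, 86.4 and 82.4 CPM in KD, against 61.6, 53.5 and 46.9 CPM in SCR. All KD libraries lay well above the SCR libraries, and UMPS rose 1.52-fold (log2 change 0.60 ± 0.10 SE, adjusted p = 0.000758). CTPS1, the CTP synthase known for proliferating lymphocytes, had 141, 139 and 142 CPM in KD, against 126, 110 and 109 CPM in SCR. It rose 1.22-fold (log2 change 0.29 ± 0.08 SE, adjusted p = 0.0173), and lost the call in 4 of 13 alternatives, which each left out 1 library: SCR 2 (adjusted p = 0.104), SCR 3 (0.0773), KD 1 (0.0549) or KD 3 (0.0626). CTPS2, its isozyme, had 27.1, 27.6 and 27.0 CPM in KD, below the 30.9, 30.1 and 30.5 CPM of SCR (log2 change -0.16 ± 0.09 SE, adjusted p = 0.172). CAD, which catalyses the opening steps of the pathway, had 199.5, 170.4 and 185 CPM in KD, against 166, 151 and 176 CPM in SCR, with overlap (log2 change 0.17 ± 0.09 SE, adjusted p = 0.174). DHODH, the mitochondrial dehydrogenase between CAD and UMPS, averaged 13.6 ± 0.181 CPM in KD and 12.7 ± 0.911 CPM in SCR (SD, n = 3 each, adjusted p = 0.531). The uridine and cytidine kinases UCK2 (215 ± 5.78 CPM in KD, 189.8 ± 6.89 CPM in SCR, SD, n = 3 each, adjusted p = 0.0925) and UCK1 (adjusted p = 0.323) were not called. UCK2 shares 225 of 7067 exon bases with TMCO1 on the other strand.

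Among the 7 enzymes of dTMP and dNTP synthesis 0 were called by edgeR, and 0 by DESeq2 and limma-voom. With 15.9% of all genes called in each direction by edgeR, 0 calls in so short a list say little. By edgeR 1 of the 7 had an unadjusted p under 0.05. TYMS, thymidylate synthase, had 201, 207 and 203 CPM in KD, against 212, 212 and 210.2 CPM in SCR, a small difference in which the groups did not overlap (log2 change -0.05 ± 0.08 SE, adjusted p = 0.62). RRM2, the regulated small subunit of ribonucleotide reductase, had 194, 191 and 204 CPM in KD, against 190.2, 192 and 182 CPM in SCR (adjusted p = 0.562). RRM1, the large subunit, had 175, 183 and 167 CPM in KD, against 170.2, 154 and 139.5 CPM in SCR (log2 change 0.18 ± 0.09 SE, adjusted p = 0.139). Both subunits overlapped between groups. RRM2 shares 1077 of 5323 exon bases with the gene ENSG00000284681 on the same strand, which was not among the genes counted. TK1, which salvages thymidine, averaged 127 ± 12.6 CPM in KD and 128 ± 3.93 CPM in SCR (SD, n = 3 each, adjusted p = 0.938). DUT, which removes dUTP, averaged 109 ± 6.45 CPM in KD and 112 ± 2.47 CPM in SCR (SD, n = 3 each, adjusted p = 0.734). DCTD, which deaminates dCMP, was slightly above SCR in each KD library (log2 change 0.12 ± 0.08 SE, adjusted p = 0.269). DTYMK, the dTMP kinase, had 80.4, 101 and 89.03 CPM in KD, against 81.0, 75.5 and 75.4 CPM in SCR (log2 change 0.23 ± 0.09 SE, adjusted p = 0.0743), and was called only without KD library 1 (adjusted p = 0.0456). RRM1 was called without SCR library 1 (adjusted p = 0.0384). TYMS shares 183 of 2470 exon bases with TYMSOS, which fell (log2 change -0.78 ± 0.23 SE, adjusted p = 0.0194), and 967 with ENOSF1, which had 1 count in 6 libraries. Whether dNTP enzymes differed from the purine and pyrimidine enzymes was not tested.

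NME1 and NME2 are neighbouring genes for nucleoside diphosphate kinases, which charge diphosphates to triphosphates. NME1 (ENSG00000239672, chromosome 17, 51153536 to 51162428) had 522, 656 and 526 CPM in KD, against 469, 418 and 391 CPM in SCR. The groups were apart, KD library 2 was highest, and NME1 rose 1.33-fold (log2 change 0.42 ± 0.10 SE, adjusted p = 0.00828). NME2 had 618, 755 and 589 CPM in KD, against 589, 572 and 530.5 CPM in SCR, where KD library 3 and SCR library 1 nearly met (log2 change 0.21 ± 0.10 SE, adjusted p = 0.116). These are closely related paralogs with a readthrough gene, NME1-NME2, that shares 638 and 603 of their exon bases, and the split of reads between them is uncertain. The readthrough gene held 1500 counts over the 6 libraries, beside 50237 for NME1 and 61765 for NME2. GUK1, the GMP kinase, had 114, 160.0 and 123 CPM in KD, against 130.0, 122 and 128 CPM in SCR (adjusted p = 0.665). CMPK1, the UMP and CMP kinase, averaged 88.1 ± 3.83 CPM in KD and 78.4 ± 3.92 CPM in SCR (SD, n = 3 each, adjusted p = 0.129). KD library 2 was the highest of the 6 for NME1, NME2, GUK1, APRT and DTYMK. The same held for PRPS1, PAICS, ADSL, IMPDH2, HPRT1, UMPS, UCK1, TK1 and RRM1. The mean log2 level of the 4 genes of phosphate transfer was 0.27 in KD library 2, against 0.00 and 0.04 in the other KD libraries.

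Several steps are encoded by a pair of isozymes, whose ratio can be followed within each library on a scale of CPM per kilobase of exon. The size of each ratio depends on the annotated exon lengths, which are the same for both groups. CTPS1 was 2.50, 2.41 and 2.51 times the level of CTPS2 in KD, against 1.96, 1.74 and 1.71 times in SCR, with the groups apart. IMPDH2 was 12.4, 13.5 and 13.2 times the level of IMPDH1 in KD, against 11.5, 11.03 and 10.98 times in SCR, also apart. ADSS2 was between 193 and 251 times the level of ADSS1 in KD and between 50.1 and 82.9 times in SCR, which rests on few ADSS1 counts. NME1 was 0.646 to 0.684 times the level of NME2 in KD and 0.559 to 0.610 times in SCR, with the uncertainty of shared reads. The ratios of PRPS1 to PRPS2 and of UCK2 to UCK1 overlapped between groups. These ratios are descriptions and carry no test. Among all single genes tested the groups were apart in 46.0%, and the share among ratios was not determined. Neither IMPDH2 nor IMPDH1 was called.

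**Figure D4:**
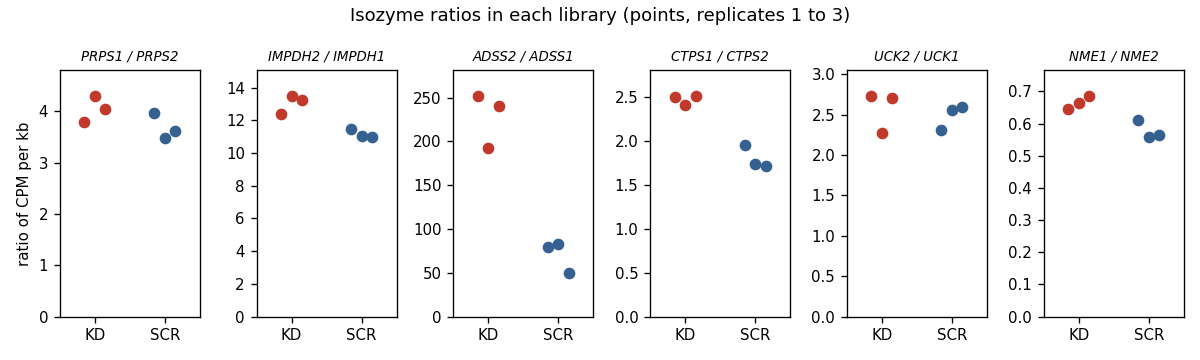
Ratio of the levels of 2 isozymes in CPM per kilobase of exon (linear axes from 0), in each KD (red) and SCR (blue) library, replicates 1 to 3 from left to right. CTPS1 over CTPS2 is 2.41 to 2.51 in KD and 1.71 to 1.96 in SCR, and PRPS1 over PRPS2 and UCK2 over UCK1 overlap.

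Levels per kilobase of exon differed widely among the enzymes in both groups. The highest means were those of NME2 (248 CPM per kilobase in KD, 214 in SCR), IMPDH2 (229 in KD, 215 in SCR), NME1 (165 in KD, 124 in SCR) and PAICS (114 in KD, 90.4 in SCR). Toward the low end stood UMPS (10.8 CPM per kilobase in KD, 7.13 in SCR), CTPS2 (4.94 in KD, 5.53 in SCR), DHODH (1.96 in KD, 1.83 in SCR) and ADSS1 (0.102 in KD, 0.286 in SCR). On this scale UMPS, which had the largest rise, had 1 of the lowest levels. The divisor is the union of all annotated exons, 7579 bases for UMPS, so genes with long or many annotated transcripts read lower. In CPM alone UMPS averaged 54.0 in SCR. That is above HPRT1 (31.4), CTPS2 (30.5), UCK1 (29.2), PRPS2 (26.1), DHODH (12.7) and ADSS1 (1.65) and below the rest of the 33. Pseudogenes named after these enzymes held 257 counts over the 6 libraries, or 0.044% of the enzymes' own counts.

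The rest of nucleotide metabolism, 76 further genes for salvage, breakdown, transport and folate supply, went in both directions. Of these 61 passed the low-count filter, 7 rose (11.5%) and 11 fell (18.0%), with a median log2 change of 0.01. The share called, 29.5%, was near the 31.7% of all genes, and counts of the shorter lists below are to be read against the same 15.9% higher and 15.9% lower. Exon overlap with other genes was not looked for in these further genes. Among 18 tested purine enzymes 2 rose and 4 fell. Of these falls that of AK7 lay near the filter's floor, which 1 of 3 KD and 3 of 3 SCR libraries reached. PNP, which cleaves purine nucleosides for salvage, had 92.9, 105 and 97.1 CPM in KD, against 75.2, 56.3 and 55.0 CPM in SCR (log2 change 0.67 ± 0.11 SE, adjusted p = 0.000774). AK6, an adenylate kinase also known for ribosome assembly, averaged 42.0 ± 5.38 CPM in KD and 28.1 ± 2.28 CPM in SCR (SD, n = 3 each, adjusted p = 0.00118). AK4, a mitochondrial adenylate kinase, fell to 58.0 ± 3.69 CPM in KD, against 73.2 ± 3.02 CPM in SCR (SD, n = 3 each, adjusted p = 0.00863). XDH, which makes uric acid, fell at a low level, with 1.43 CPM in KD and 2.34 CPM in SCR (adjusted p = 0.0423). Of 6 pyrimidine enzymes tested 0 rose and 1 fell, TYMP, a thymidine phosphorylase, at 1.07 CPM in KD and 1.89 CPM in SCR (adjusted p = 0.0471).

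Of 10 further dNTP genes 2 rose and 0 fell. DCTPP1, which breaks down dCTP, had 86.6, 101 and 86.7 CPM in KD, against 72.2, 54.7 and 54.5 CPM in SCR (log2 change 0.60 ± 0.11 SE, adjusted p = 0.00145). SAMHD1, which hydrolyses dNTPs, had 48.1, 41.7 and 50.8 CPM in KD, against 39.3, 32.96 and 31.7 CPM in SCR (log2 change 0.44 ± 0.11 SE, adjusted p = 0.007). Both degrade dNTPs, and in both the groups were apart. Of 4 other nucleoside diphosphate kinases tested 0 were called. Of 6 nucleotidases 0 rose and 2 fell, both at low levels: NT5C1A (0.677 CPM in KD, 1.82 CPM in SCR, adjusted p = 0.00852) and NT5M (1.75 CPM in KD, 3.20 CPM in SCR, adjusted p = 0.038). NT5C1A reached the filter's floor in 2 of 3 KD and 3 of 3 SCR libraries.

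Of 6 nucleoside transporters tested 1 rose and 2 fell. SLC29A1, the equilibrative transporter ENT1, had 164, 155 and 155 CPM in KD, against 141, 123 and 126 CPM in SCR (log2 change 0.28 ± 0.08 SE, adjusted p = 0.0184). SLC29A4, a transporter of adenosine and monoamines, had 90.3, 101 and 83.5 CPM in KD, against 135, 173 and 181 CPM in SCR (log2 change -0.83 ± 0.11 SE, adjusted p = 0.000191). SLC28A3, a concentrative nucleoside transporter, had 0.650, 0.678 and 0.261 CPM in KD, against 1.64, 5.23 and 3.86 CPM in SCR (log2 change -2.83 ± 0.45 SE, adjusted p = 0.000572), with a wide spread in SCR and 1 of 3 KD libraries under the filter's floor. Of 11 folate genes 2 rose and 2 fell. The folate carriers SLC25A32 of mitochondria (89.3 CPM in KD, 63.1 CPM in SCR, adjusted p = 0.00117) and SLC19A1 of the plasma membrane (63.2 CPM in KD, 48.6 CPM in SCR, adjusted p = 0.00397) rose. The mitochondrial enzymes MTHFD2 (315 CPM in KD, 433 CPM in SCR, adjusted p = 0.00533) and SHMT2 (359.6 CPM in KD, 428 CPM in SCR, adjusted p = 0.0437), which feed formate to purine and thymidylate synthesis, fell.

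**Figure D5:**
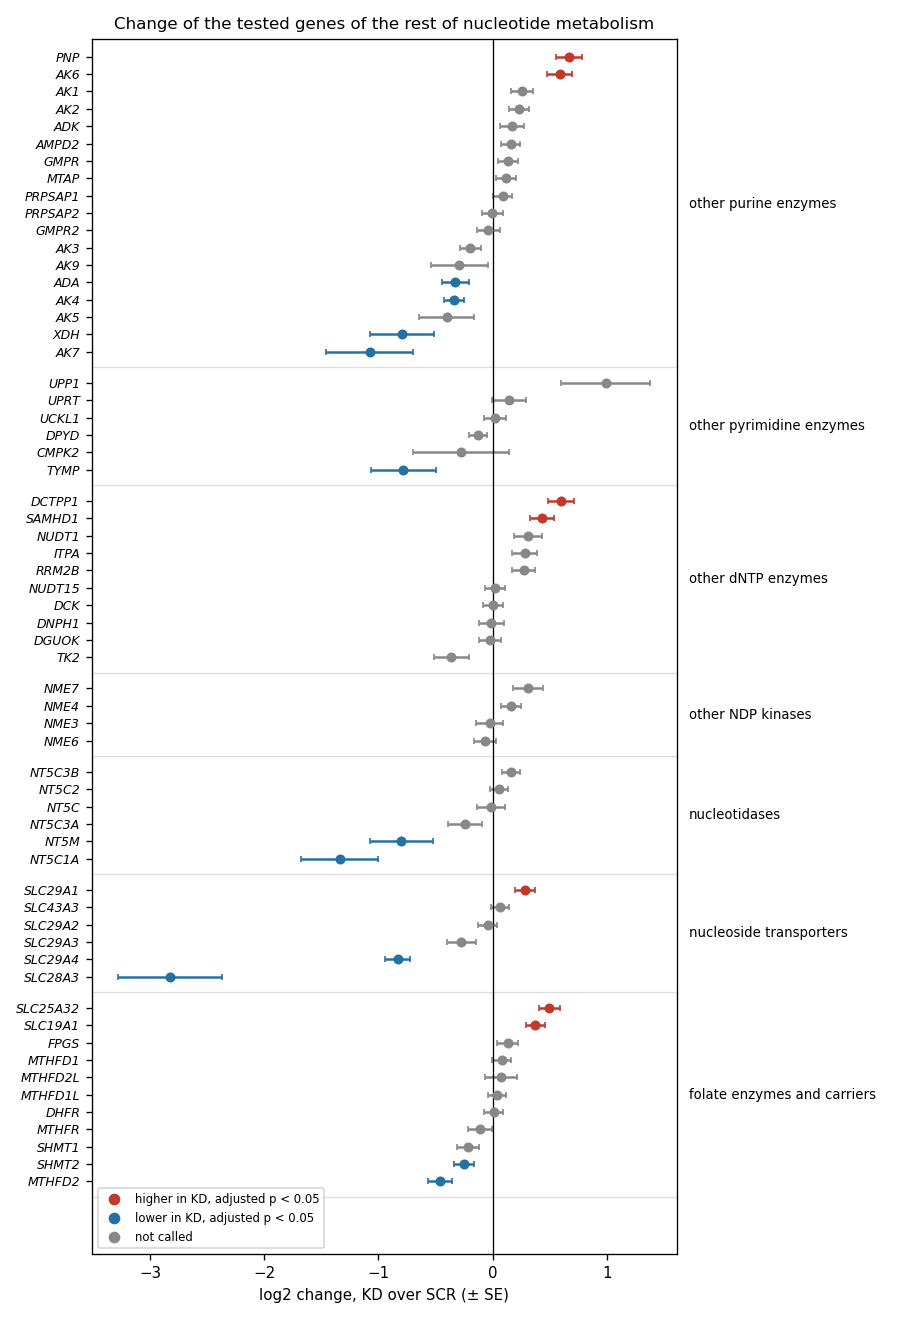
Log2 change, KD over SCR, with bars of 1 SE, of the 61 tested genes of the rest of nucleotide metabolism and folate supply (n = 3 libraries each); red points were called higher, blue lower and grey not called. The 18 calls range from -2.83 for SLC28A3 to 0.67 for PNP.

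Genes of the cell cycle and of the MYC family were read beside these values, because dNTP enzymes vary with S phase and several of the enzymes are MYC targets. Over all genes 15.9% were called in each direction. Of 16 S phase genes 6 rose (37.5%) and 1 fell (6.25%), among them CCNE1, cyclin E1 (43.4 CPM in KD, 32.3 CPM in SCR, adjusted p = 0.00291), CDC6, an origin licensing factor (172 CPM in KD, 127 CPM in SCR, adjusted p = 0.011), and CDT1, another licensing factor, which fell (37.1 CPM in KD, 51.0 CPM in SCR, adjusted p = 0.00998). Of 12 G2/M genes 2 rose (16.7%) and 0 fell, CCNB1, cyclin B1 (261 CPM in KD, 187 CPM in SCR, adjusted p = 0.000945), and AURKA, a mitotic kinase (166 CPM in KD, 139 CPM in SCR, adjusted p = 0.0303). MYC had 1232, 1259 and 1118 CPM in KD, against 1151, 1103 and 1278 CPM in SCR (log2 change 0.03 ± 0.09 SE, adjusted p = 0.826). Of 11 genes of the MYC family and its partners 2 rose (18.2%) and 3 fell (27.3%). MLX, a partner of MYC antagonists, was at 85.4 CPM in KD and 61.5 CPM in SCR (adjusted p = 0.000707), MXI1, a MYC antagonist, at 24.7 CPM in KD and 38.3 CPM in SCR (adjusted p = 0.000458), and MYCL, a MYC paralog, at 12.4 CPM in KD and 22.0 CPM in SCR (adjusted p = 0.000547). The part of these genes in the changes of the enzymes was not tested.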

How the data were processed

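PolyA+ RNA of 3 KD and 3 SCR libraries (TruSeq Stranded mRNA) was sequenced. The submitters' processing notes name GRCh38.p13, RSEM, STAR 2.7.9a and Trim Galore 0.6.4. RSEM's version, the annotation and the strand setting: not given in the sources used here. The deposited values are whole numbers per gene, taken to be RSEM's estimated counts (expected counts) that the authors had rounded, and RSEM shares reads among near-identical genes. Depth is the total count per library.

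Each file held 60708 rows. The 44 pseudoautosomal Y copies were added to their X copies. Symbols were found for 60463 of 60664 genes, and coordinates and union exon lengths come from GENCODE release 29 (GRCh38, 1-based). Groups were taken from the labels. Replicate libraries varied beyond counting error, with 2.69 to 15.2 as the range of chi-square over its degrees of freedom.

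The test was edgeR's quasi-likelihood F test (edgeR 4.0.16 in R 4.3.3) after TMM scaling and a filterByExpr low-count filter, without covariates. All p-values are 2-sided and adjusted by Benjamini-Hochberg over 14673 genes. The SE was derived from the log2 change and F. On 10 simulations of 14673 genes, 3 against 3, with 100 genes changed at each size, the test recovered 65.5% of 1.5-fold and 81.7% of 2-fold changes. Of its calls 9.80% (5.92% to 13.2% in single simulations) fell on unchanged genes, more than the threshold of 0.05 allows. Far fewer genes were changed in the simulations than the 31.7% called in the data. These rates depend on that fraction, so they do not give the rates for the calls here. Calls near the threshold are still to be read with caution. Among unchanged genes 4.92% had an unadjusted p under 0.05.

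Named genes were all 33 enzymes, up to 4 called genes with the smallest adjusted p in each further list of nucleotide metabolism, up to 3 in each list of S phase, G2/M and MYC family genes, and MYC. SON, TMCO1, TYMSOS, ENOSF1, NME1-NME2, the genes that overlap ADSL and RRM2, AK7, and the markers of the tumour type and of other cells are named because a value rests on them. The members and lists were chosen with earlier results of these data known. Promoter windows are from RefSeq (GRCh38.p14). DESeq2 1.42.0, limma-voom (limma 3.58.1), other scalings and filters, a replicate block and leaving out each library were tried as alternatives. Figures were drawn with matplotlib 3.10.9.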

Additional observations from a re-analysis of the deposited data

How the results depend on the processing

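Of the 9 called enzymes 5 (UMPS, PPAT, GART, NME1 and ADSS1) kept their call in each of 13 alternatives and 4 lost it in some; of 24 uncalled ones 5 gained a call in some. The count of enzymes called higher, 8, ranged from 4 to 12 when 1 library was left out, and was 4 at an adjusted p under 0.01; that of enzymes called lower was 1 throughout. Of all genes, 4657 were called, 2704 to 5114 with 1 library left out and 2459 at an adjusted p under 0.01. The median log2 change of the enzymes, 0.17, was 0.11 with upper-quartile scaling, which moved the median of all genes to -0.06. Signs turned for 5 enzymes, with no call either way. APRT, at 0.11 in the main setting, turned only without KD library 2. GMPS, at 0.00 in the main setting, was at -0.057 with upper-quartile scaling, -0.011 with no low-count filter and -0.012 with a minimum of 1 CPM in 3 libraries. Leaving out 1 library gave -0.036 to 0.061 for GMPS, -0.023 to 0.18 for APRT, -0.096 to 0.038 for TK1, -0.075 to 0.00048 for DUT and -0.090 to 0.16 for GUK1. The cause was not tested. Labels number the libraries of both groups 1 to 3, but same-numbered libraries did not deviate together (correlations 0.03, 0.10 and -0.03), and not every library correlated best with its own number. With a replicate block 4742 genes were called, 7 enzymes were higher and 1 lower, and the call of HPRT1 was lost (adjusted p = 0.0508). KD library 1, the shallowest, limits low genes such as ADSS1, which had 4 counts there.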
